A study of Mus musculus with 73 samples.

Results

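The genes described are the smooth-muscle actins and contractile proteins Acta2, Tagln, Cnn1, Cnn2, Myl9, Actg2, Tpm1, Tpm2 and Cald1, 9 of the 37310 gene identifiers of the RNA table, followed in all 12 RNA libraries. They were chosen by symbol, with their low levels in the 40kb libraries already known, so the comparison of 40kb with wild type is given for them as a description. How many of them passed a threshold in it is stated only where dependence on the processing is described, and nothing is read from that count. The cells were of E14Tg2a, a feeder-independent embryonic stem (ES) cell line from a male mouse (strain 129/Ola, XY), kept in medium with serum and leukemia inhibitory factor (LIF) on gelatin. The 40kb [Tsix-Xist] allele had 4 libraries, from 2 clones with 2 replicates each, and its own wild type had 2. The 70kb [Xite-Jpx] allele likewise had 4 libraries from 2 clones, and its own wild type 2. Both alleles change the X-inactivation centre, the X-linked region that holds the silencing RNA Xist and its antisense gene Tsix, and the genotype labels do not say whether they are inversions or deletions. Clones came from cells transfected with CRISPR plasmids or TALENs. Nothing states whether the 2 replicates of a clone were separate cultures, so every p-value below measures the spread between these libraries, which may be technical.

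Contraction rests on myosin pulling on actin filaments. Acta2 and Actg2 encode the smooth muscle alpha and gamma actins, Tpm1 and Tpm2 encode tropomyosins that lie along the filament, and Myl9 encodes a regulatory light chain of myosin II. The products of Cnn1 and Cnn2 (calponins) and of Cald1 (caldesmon) bind the filament and restrain myosin, and that of Tagln (transgelin) binds and bundles actin. Many of these genes are targets of serum response factor (SRF), which binds a motif called the CArG box together with myocardin or the related MRTF proteins, and TGF-beta is a known inducer of them. They mark smooth muscle and myofibroblasts, and several are also used in the stress fibres of other spread cells.

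RefSeq promoters (build GRCm38.p6) were matched for 7 of the 9 genes, and Tagln and Actg2 are named only. The 4 stretches shown are the last 170 bases before the start site of the genes whose windows held a CArG box, a near match to it or, for Tpm1, the M-CAT motif near the start site, so that the letters behind those matches can be read. Capitals mark the matches: a CArG box, a CArG box with 1 departure (a single G or C inside its run of A and T), or the M-CAT motif CATTCC on either strand.
Acta2 (chr19:34255374-34255543, strand -): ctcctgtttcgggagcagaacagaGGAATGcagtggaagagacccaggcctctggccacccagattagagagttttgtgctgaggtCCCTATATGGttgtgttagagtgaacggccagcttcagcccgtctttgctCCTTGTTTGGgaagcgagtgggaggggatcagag
Cnn2 (chr10:79988430-79988599, strand +): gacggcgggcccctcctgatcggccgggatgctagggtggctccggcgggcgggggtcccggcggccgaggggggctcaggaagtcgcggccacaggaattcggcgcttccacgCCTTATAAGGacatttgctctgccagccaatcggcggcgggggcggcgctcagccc
Myl9 (chr2:156775294-156775463, strand +): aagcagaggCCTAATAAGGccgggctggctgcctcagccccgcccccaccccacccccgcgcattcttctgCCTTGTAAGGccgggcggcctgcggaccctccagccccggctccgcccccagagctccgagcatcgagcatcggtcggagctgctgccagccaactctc
Tpm1 (chr9:67049214-67049383, strand -): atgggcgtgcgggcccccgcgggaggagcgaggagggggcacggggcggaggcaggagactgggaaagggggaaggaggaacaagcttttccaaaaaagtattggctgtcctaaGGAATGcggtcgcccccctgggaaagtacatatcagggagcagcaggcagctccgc
In Cnn2 the CArG box began 56 bases before the start site, and in Myl9 161 bases before it. Acta2 had no full CArG box in this window but 2 boxes with 1 departure, which began 84 and 34 bases before the start, and Myl9 had a further one 99 bases before it. M-CAT was found in Acta2, in Tpm1 and in 1 of the 2 Cald1 promoters. The windows of Cnn1, Tpm2 and the other Cald1 promoter held none of these letters. Of all 32851 mouse promoters in the table, read over the same 300 bases, 1.63% held a CArG box, 8.5% a box with 1 departure and 14.7% M-CAT. These are matches of letters only.

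The libraries held 34514493 to 46605508 counts, and the 9 genes together made up between 0.0118% and 0.219% of a library. Levels are given as CPM, counts scaled to a common library total (by TMM), and fold changes on the log2 scale with their standard error (SE), from edgeR. Levels are compared between libraries and not between genes, since no transcript lengths were used. Of the 9 genes 8 passed the filter on low counts and Actg2 did not. ES cell transcripts were high throughout, with Pou5f1 between 774.7 and 1356 CPM over the 12 libraries. Myh11, the heavy chain that defines mature smooth muscle, lay between 0.0884 and 0.896 CPM. In bulk libraries, fewer cells with these transcripts and less RNA per cell cannot be told apart.

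In keeping with their choice, all 8 contractile genes that passed the filter were lower in every 40kb library than in both libraries of its wild type. Over all genes tested, 19.7% had that arrangement. The log2 fold change ran from -4.75 for Acta2 to -1.20 for Tpm2, with a median of -2.48, beside a median of 0.06 over all 16636 genes tested. Nothing is read from these values, because this comparison chose the genes.

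The actins come first. Acta2 (ENSMUSG00000035783.8) had 0.94 and 5.65 CPM in 40kb clone 2 and 0.366 and 2.2 CPM in 40kb clone 1, against 58.4 and 62.9 CPM in wild type. The wild-type libraries lay close together, while the 40kb libraries spread over a wide range far below them. The log2 fold change was -4.75 (SE 1.10), a level 26.9-fold lower in 40kb. Actg2 (ENSMUSG00000059430.8) was barely detected, with 5 counts in the first replicate of 40kb clone 1 and 0 in the other 3 libraries of 40kb, against 3 and 1 counts in wild type. A count of 0 allows up to 3 counts in a library. No difference in Actg2 between 40kb and its wild type was therefore detectable at this depth. In the 70kb set Actg2 had 6 and 15 counts in clone 2 and 0 in both libraries of clone 1. The wild type of that set had 1 and 8 counts. The coding sequences of the muscle actins are nearly identical, and the sources used here do not say how reads that fit several of them were counted, so the split of counts between Acta2, Actg2 and the other actins is uncertain.

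**Figure D1:**
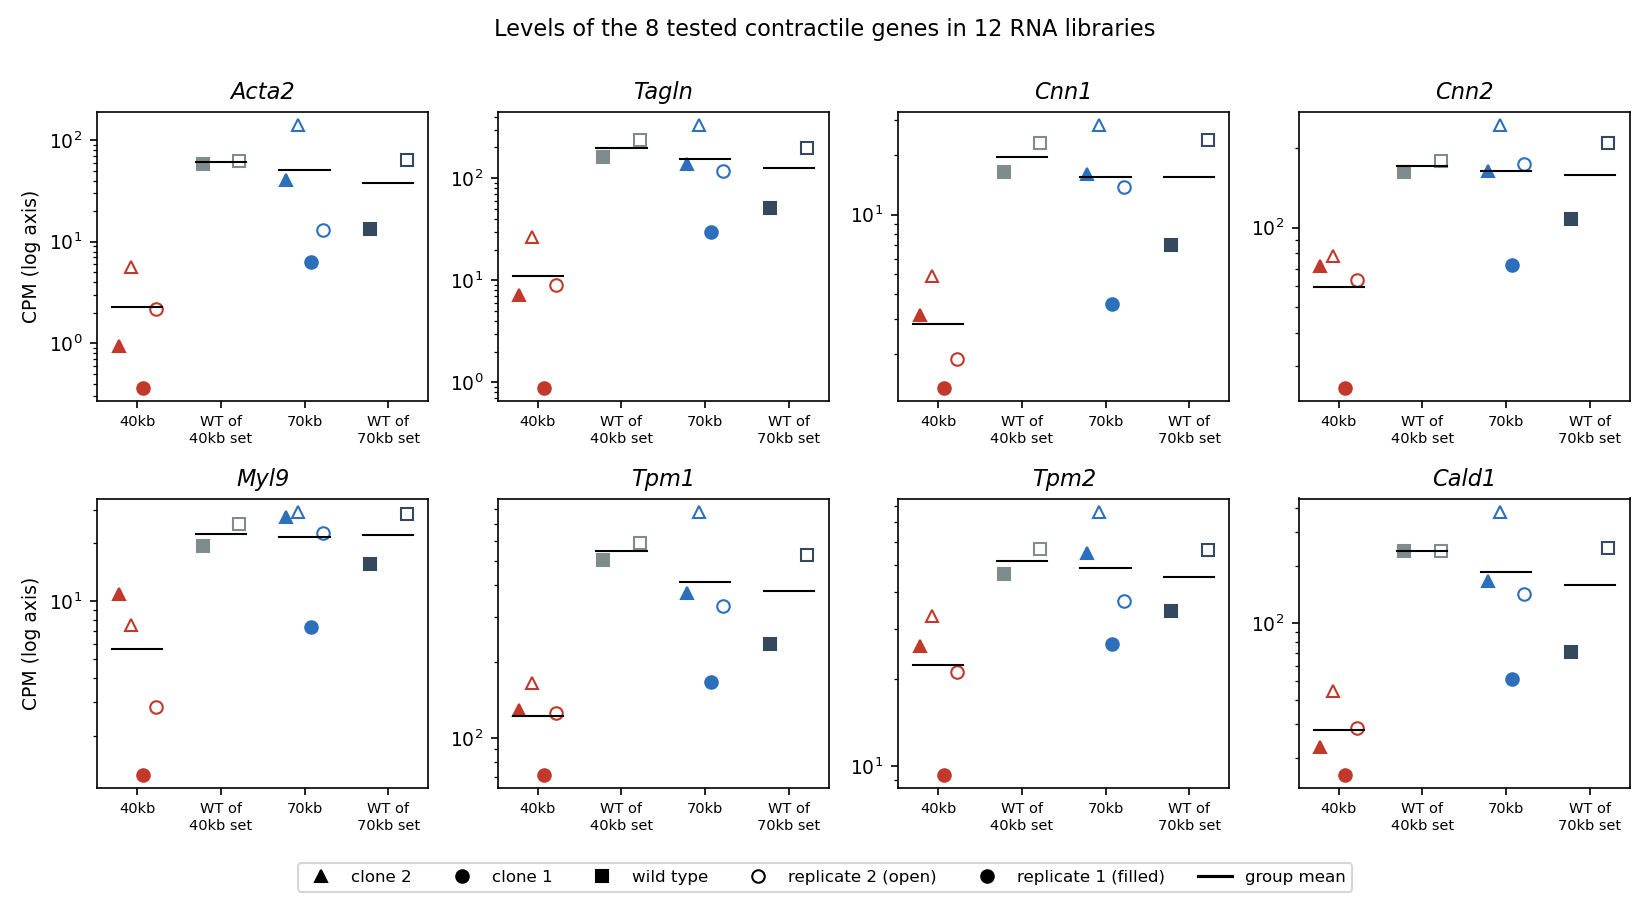
Level (CPM, log axis) of the 8 contractile genes tested, by group on the horizontal axis. Triangles are clone 2, circles clone 1 and squares wild type; open symbols are replicate 2, filled symbols replicate 1, and black lines group means. The 40kb points lie below both wild-type points of their set in each panel (Acta2 0.366 to 5.65 CPM against 58.4 and 62.9 CPM), while the 70kb points span their wild type.

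Among the proteins that bind the actin filament, Tagln (ENSMUSG00000032085.4) had 7.12 and 26.7 CPM in 40kb clone 2 and 0.891 and 9.01 CPM in 40kb clone 1, against 160.3 and 238 CPM in wild type. Its log2 fold change was -4.19 (SE 0.96), 18.3-fold lower in 40kb. Tagln overlaps the convertase gene Pcsk7 by RefSeq spans, and the sources used here do not say whether counting used the strand. Pcsk7 lay between 11 and 15.9 CPM over the 12 libraries with a log2 fold change of -0.07 in 40kb, so the difference of Tagln exceeded the whole level of its neighbour.

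The tropomyosins differed less. Tpm1 (ENSMUSG00000032366.9) had 128 and 164 CPM in 40kb clone 2 and 71.6 and 125 CPM in 40kb clone 1, against 502 and 590 CPM in wild type, a log2 fold change of -2.16 (SE 0.47). Tpm2 (ENSMUSG00000028464.9) had 26.1 and 33.1 CPM in 40kb clone 2 and 9.37 and 21.2 CPM in 40kb clone 1, against 46.4 and 56.4 CPM in wild type, a log2 fold change of -1.20 (SE 0.43). On the log2 scale Tpm2 was the gene whose 40kb and wild-type libraries came closest to each other.

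Caldesmon, the calponins and the myosin light chain covered a range of sizes. Cald1 (ENSMUSG00000029761.9) had 22.6 and 44.5 CPM in 40kb clone 2 and 16.3 and 28.5 CPM in 40kb clone 1, against 239 and 237 CPM in wild type, a log2 fold change of -3.09 (SE 0.61). Cnn1 (ENSMUSG00000001349.4) had 3.12 and 4.92 CPM in 40kb clone 2 and 1.35 and 1.87 CPM in 40kb clone 1, against 16.3 and 22.8 CPM in wild type, a log2 fold change of -2.80 (SE 0.66). Both showed a clear gap between the groups. Cnn2 (ENSMUSG00000004665.4), the calponin also found outside muscle, had 71.7 and 77.9 CPM in 40kb clone 2 and 24.9 and 63.6 CPM in 40kb clone 1, against 162 and 179 CPM in wild type, a log2 fold change of -1.52 (SE 0.44). Myl9 (ENSMUSG00000067818.6) had 10.9 and 7.58 CPM in 40kb clone 2 and 1.26 and 2.82 CPM in 40kb clone 1, against 19.3 and 25.4 CPM in wild type, a log2 fold change of -1.98 (SE 0.65). The first replicate of 40kb clone 1 was the lowest of the 12 libraries for each of the 8 genes.

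In the 70kb libraries none of these genes passed the test, a Benjamini-Hochberg adjusted p under 0.05 in edgeR's quasi-likelihood test. Of the 8, edgeR called 0 (0 at an unadjusted p under 0.05) and DESeq2 called 0, beside 0% of all 16636 genes in edgeR, of which 100 had an unadjusted p under 0.05, and 3 genes in DESeq2. For 0 of the 8 did all 70kb libraries lie on 1 side of both wild-type libraries, where 3.08% of all genes were lower in that way and 2.4% higher. Acta2 had 40.1 and 142 CPM in 70kb clone 2 and 6.27 and 13.1 CPM in 70kb clone 1, against 13.3 and 63.2 CPM in wild type. Clone 2 thus held the highest level of the 12 libraries and clone 1 the lowest of the 70kb set. The log2 fold change was 0.40 (SE 1.07), with a 95% interval from -1.93 to 2.72, and its adjusted p rounded to 1. Tagln had 137 and 335 CPM in 70kb clone 2 and 29.6 and 118 CPM in 70kb clone 1, against 51 and 198 CPM in wild type, a log2 fold change of 0.32 (95% interval from -1.78 to 2.42). The other 6 had log2 fold changes between -0.03 for Myl9 and 0.23 for Cald1. The interval was narrowest for Tpm2, from -0.86 to 1.07. The difference between the alleles was not tested, since 40kb chose the genes. Within replicate number 1 the difference between the 70kb mean and its wild type in Acta2 was 0.25 on the log2 CPM scale, and within replicate number 2 it was -0.55.

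**Figure D2:**
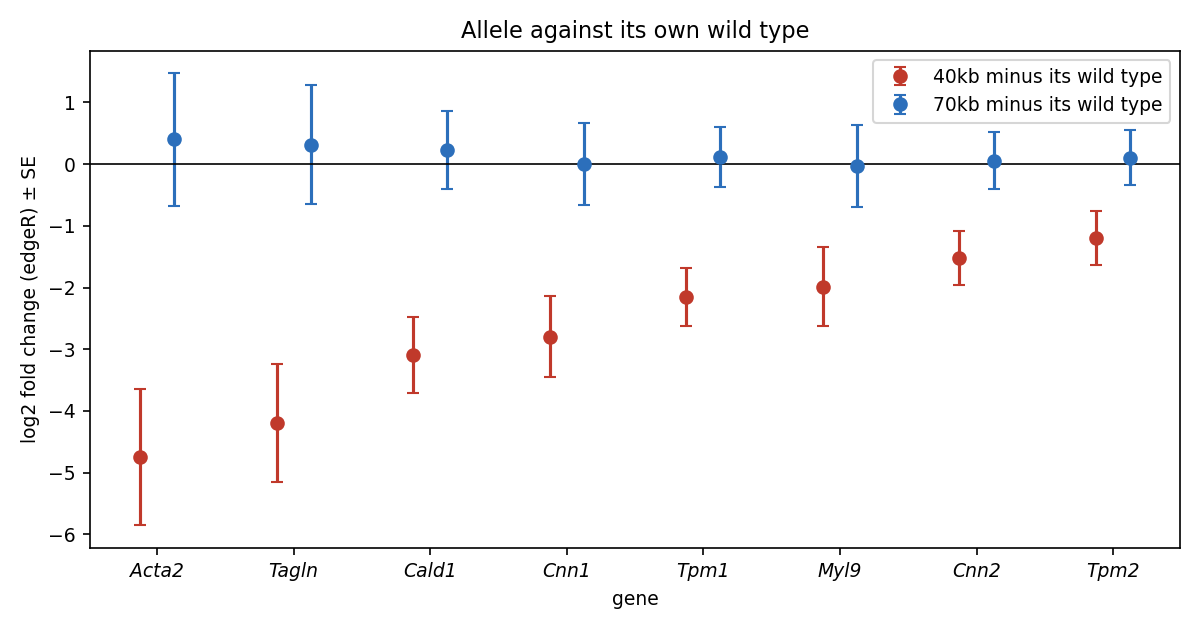
Log2 fold change with its standard error (vertical axis) of the 8 genes tested, for 40kb minus its wild type (red) and 70kb minus its wild type (blue). The red values run from -4.75 to -1.20 and describe the comparison that chose the genes; the blue ones run from -0.03 to 0.40.

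The 70kb libraries were also compared by clone and by replicate number. In clone 2 against clone 1 the 8 log2 differences ran from 0.73 for Cnn2 to 3.23 for Acta2 (SE 0.95), all above 0, with a median of 1.29 beside -0.01 over all genes. Without a term for the replicate number 0 of the 8 were called in edgeR (lowest adjusted p = 0.322, for Acta2) or in DESeq2, beside 0.012% of all genes called by edgeR. An unadjusted p under 0.05 was reached by 4 of the 8, beside 9.49% of all genes. Libraries with the same replicate number deviated together across the 3 groups of this set, but weakly between the clones compared here. Their correlation of deviations was 0.211, beside 0.17 between the 40kb clones. The block was thus chosen from these data. It also blocked the 40kb set by replicate number and left 4 residual degrees of freedom. With the replicate number as a block, 5 of the 8 were called higher in clone 2, beside 1.44% of all genes called in either direction (1.28% higher). These were Acta2 (log2 difference 3.05, adjusted p = 0.0206, edgeR), Tpm1 (1.20, 0.0129), Cald1 (1.55, 0.0172), Cnn1 (1.61, 0.0203) and Tpm2 (1.04, 0.0452). Tagln (1.87, adjusted p = 0.0763), Cnn2 (0.84, 0.209) and Myl9 (1.12, 0.217) were not called. In all 8 genes both libraries of clone 2 lay above the library of clone 1 with the same replicate number.

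Replicate 2 lay above replicate 1 in 70kb clone 2, in 70kb clone 1 and in wild type for all 8 genes. Over all genes tested 23.1% did so in this set. This comparison was added after the data were seen. In wild type alone Acta2 had 63.2 CPM in replicate 2 and 13.3 CPM in replicate 1, and Cald1 had 246 CPM in replicate 2 and 70.6 CPM in replicate 1. Over the 3 groups the log2 difference of replicate 2 minus replicate 1 was 1.73 (SE 0.53) for Acta2, 1.74 (SE 0.61) for Tagln, 1.49 (SE 0.26) for Cald1 and for Cnn1, and 1.08 (SE 0.19) for Tpm1. It was 0.94 for Cnn2, 0.84 for Myl9 and 0.55 for Tpm2. Fitted with all 12 libraries, 0 of the 8 were called by edgeR, the lowest adjusted p being 0.0538 for Cnn1, Tpm1 and Cald1, beside 0.138% of all genes. All 8 had an unadjusted p under 0.05, as had 2665 of all genes. Fitted on the 6 libraries of the 70kb set alone, 7 of the 8 were called higher, Myl9 being the exception (adjusted p = 0.132, edgeR). Of the 16047 genes tested in that fit, 3.66% were called in either direction (2.97% higher). That fit left only 2 residual degrees of freedom. DESeq2 on the 12 libraries called 4 of the 8, beside 4.45% of all genes. The labels give both numbers a code, B13 for replicate 1 and B14 for replicate 2 of this set, and the sources used here do not say what the letter means.

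**Figure D3:**
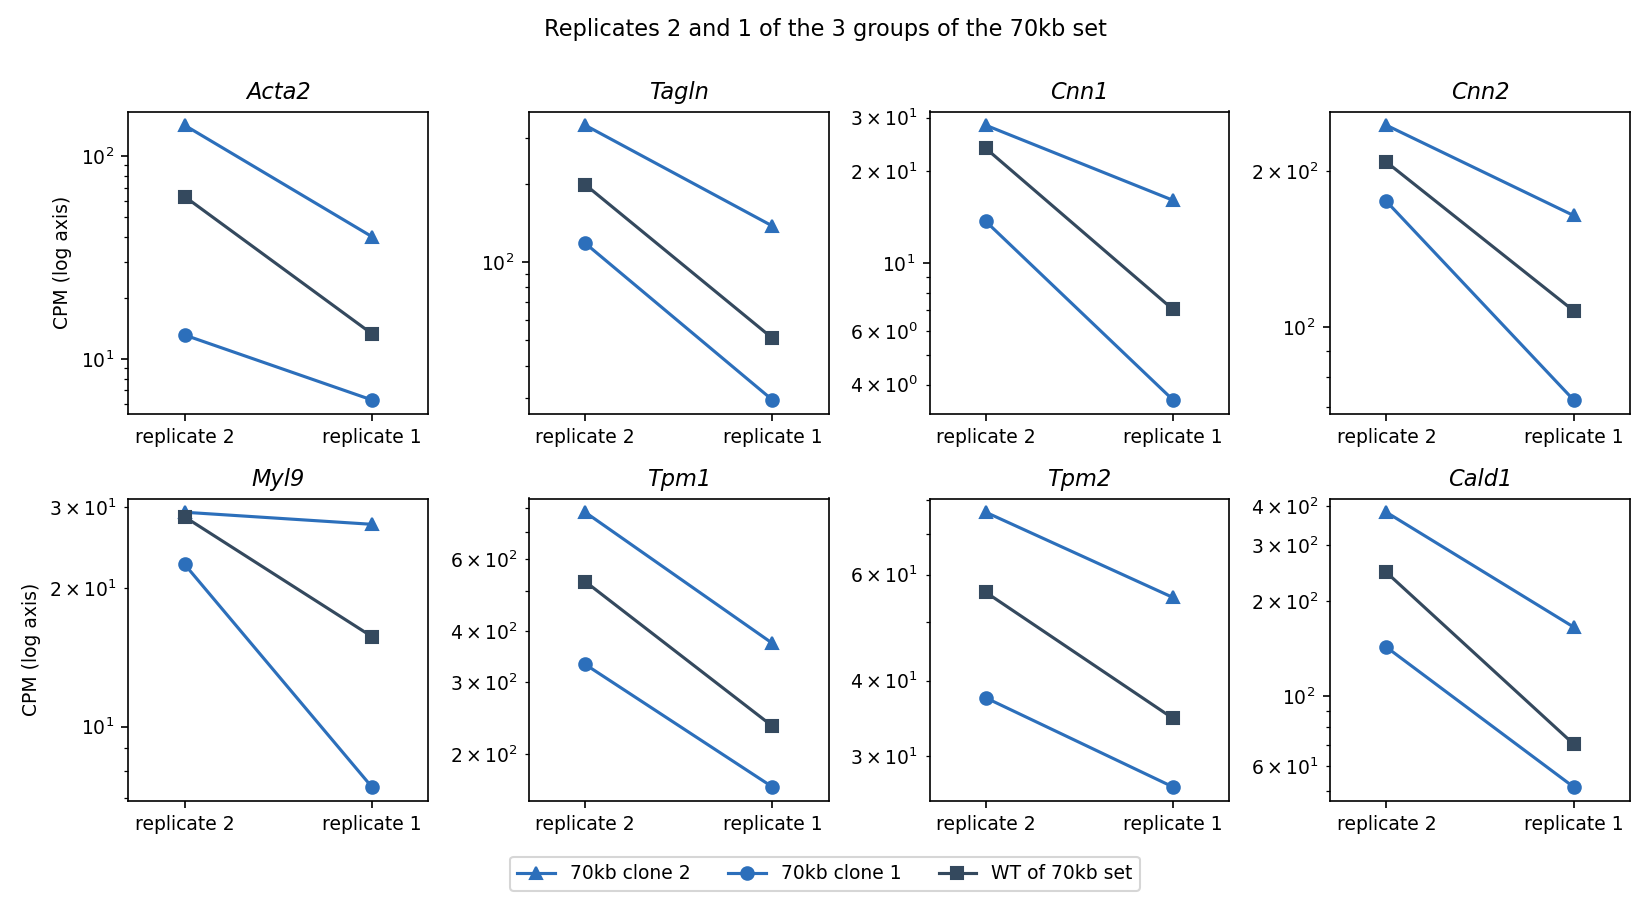
Level (CPM, log axis) in replicate 2 (left) and replicate 1 (right) of 70kb clone 2 (triangles), 70kb clone 1 (circles) and the wild type of the 70kb set (squares) for the 8 genes tested. Each line falls to the right, and clone 2 lies above wild type and clone 1 in each panel, as for Tpm1, where clone 2 had 781 and 373 CPM, clone 1 had 331 and 166 CPM and wild type had 529 and 234 CPM.

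In the 40kb set 6 of the 8 genes were higher in replicate 2 than in replicate 1 in all 3 groups, where 12.9% of all genes were. The exceptions were Myl9, lower in replicate 2 of 40kb clone 2, and Cald1, nearly level in wild type. In this set the replicate number did not stand for a shared code. Replicate 1 was B1 in clone 1, B5 in clone 2 and B2 in wild type. Replicate 2 was B2 in clone 1 and B6 in clone 2 and wild type. The count of 6 is therefore a description only, and a replicate effect in this set was not tested. Between the 40kb clones all 8 log2 differences of clone 2 minus clone 1 were above 0, with a median of 1.14 beside 0.00 over all genes. The largest difference was 2.19 for Myl9 (SE 0.53, 95% interval from 1.04 to 3.35), from the Myl9 levels given above. Its adjusted p of 0.11 (edgeR) missed the threshold, and 0 of the 8 were called in edgeR, beside 0.0661% of all genes. An unadjusted p under 0.05 was reached by 2 of the 8, beside 16.6% of all genes, and DESeq2 called 1, beside 3.35%. For Acta2 the difference of 1.38 (SE 1.05) turned to -0.41 without the second replicate of clone 2.

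The wild-type libraries of both sets, which the table's headers name differently (E14.2 in the 70kb set and E14 in the 40kb set), were also set side by side. Acta2 had 13.3 and 63.2 CPM in the wild type of the 70kb set, against 58.4 and 62.9 CPM in that of the 40kb set. Replicate 2 of the 70kb set thus reached the level of the 40kb set and replicate 1 did not. The median log2 difference over the 8 genes was -0.43, all 8 below 0, and it was 0.09 without replicate 1 and -1.34 without replicate 2 of the 70kb set. These libraries are shared with the comparison that chose the genes, so no test of the 8 genes is given. Over all 16636 genes edgeR called 0 between the wild-type sets, and 394 had an unadjusted p under 0.05.

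The 8 genes followed each other closely across libraries. Pearson's r of log2 CPM over the 12 libraries had a median of 0.958 over the 28 pairs of genes, from 0.870 to 0.990. With each library taken as its deviation from the mean of its group, so that the difference between alleles is removed, the median was 0.895, from 0.647 to 0.975. The libraries share depth and composition, so this is a description only. Myl9 was the member least like the others (r = 0.922 with the mean of the rest). The genes differed in how far they ranged: the SD of log2 CPM over the 12 libraries was 2.64 for Acta2 and 2.54 for Tagln, 1.51, 1.54 and 1.44 for Cnn1, Cald1 and Myl9, and 1.08, 0.95 and 0.81 for Tpm1, Cnn2 and Tpm2. Averaged over the 8 genes, each centred on its mean, the libraries ran from -3.06 in 40kb clone 1 replicate 1 to 1.94 in 70kb clone 2 replicate 2. The first replicate of 70kb clone 1 (-0.73) lay below the second replicate of 40kb clone 2 (-0.68), so on this average the alleles overlapped.

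The genes most like this average were, in order, Bmp1 (r = 0.996), Scarf2, Grip1, Mfhas1, Parva and Sh3bp5 (r = 0.992 each), over 12 libraries and 14113 ranked genes. Bmp1 encodes a protease that processes procollagens, and Parva encodes an actin-binding protein of focal adhesions. Bmp1 averaged 1.64 CPM in 40kb and 22 CPM in its wild type, and 16.2 CPM in 70kb and 12.6 CPM in its wild type. Parva averaged 4.83 CPM in 40kb and 40.3 CPM in its wild type. At a looser limit, 831 genes, 5.89% of those ranked, had r above 0.9. The share of genes at the r of those named here was not counted.

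Among 57 other genes of contraction and of its inputs, all tested, 14 were called lower in 40kb and 0 higher, which is 24.6%, beside 6.43% of all genes called in either direction and 5.67% called lower. Their median log2 fold change was -0.58. These lists were also chosen with earlier results of these data known, so the share called in 40kb is a description and no independent comparison. In 70kb 0 of the 57 were called by edgeR or by DESeq2, and 1 had an unadjusted p under 0.05, beside 0.601% of all genes. The 40kb calls depended on single libraries: 0 of the 57 were called without either wild-type library in turn or without the second replicate of clone 1, 1 without the first replicate of either clone, and 13 without the second replicate of clone 2.

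Of 4 other actins 3 were called lower. Acta1, the skeletal muscle actin, had 0.0914 to 4.14 CPM in 40kb, against 40.4 and 41 CPM in wild type (log2 fold change -4.49, SE 1.04, adjusted p = 0.0291, edgeR). Actg1, 1 of the 2 cytoplasmic actins, had 283 to 457 CPM in 40kb, against 754 and 792 CPM in wild type (log2 fold change -0.97, SE 0.24, adjusted p = 0.0326). The cardiac actin Actc1, named after its value was seen, was called as well (log2 fold change -3.98). Actb, the other cytoplasmic actin, had a log2 fold change of 0.10 (SE 0.21) and was not called. Of 5 other tropomyosins, calponins and transgelins only Tpm4 was called, with 85.5 to 113 CPM in 40kb, against 196 and 267 CPM in wild type (log2 fold change -1.23, SE 0.33, adjusted p = 0.0473). Tagln2, with -0.70 on the log2 scale (SE 0.25), missed the threshold at an adjusted p of 0.11, and Tpm3, Cnn3 and Tagln3 had log2 fold changes between -0.24 and -0.07.

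Of 12 genes of myosin II and its control 0 were called in edgeR. An unadjusted p under 0.05 was reached by 4, beside 23.5% of all genes, and DESeq2 called 3, beside 11.3% of all genes. The list held the non-muscle heavy chains Myh9 and Myh10, the kinases Rock1 and Rock2 and the GTPase Rhoa. Their median log2 fold change was -0.23. Of 14 partners of the actin filament Csrp1 and Fhl2 were called. Csrp1, a LIM protein of the actin cytoskeleton, had 29 to 43.5 CPM in 40kb, against 113 and 135 CPM in wild type (log2 fold change -1.72, SE 0.39, adjusted p = 0.0269). Fhl2, a LIM cofactor of SRF and other factors, had 0.251 to 1.15 CPM in 40kb, against 4.26 and 5.75 CPM in wild type (log2 fold change -3.08, adjusted p = 0.039).

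Of SRF, its partners and other targets 5 of 11 were called. Fos, an immediate early gene, had 7.42 to 11 CPM in 40kb, against 31.1 and 36.1 CPM in wild type (log2 fold change -1.86, SE 0.40, adjusted p = 0.0239, edgeR). Cyr61, a matrix protein gene also called Ccn1, had 2.97 to 12.9 CPM in 40kb, against 58 and 58.4 CPM in wild type (log2 fold change -2.66, adjusted p = 0.0292). Thbs1, Ankrd1 and the coactivator Myocd were the other called genes, named after their values were seen. Myocd was close to the floor, with at most 0.0543 CPM in 40kb, so its call rests on few counts. Srf itself had 28.1 to 51.7 CPM in 40kb, against 59.9 and 66.5 CPM in wild type (log2 fold change -0.58), and its MRTF partners, listed as Mkl1 and Mkl2, had log2 fold changes of -0.15 and -0.20. None of these 3 was called. Of 11 genes of TGF-beta signalling 3 were called: the receptors Tgfbr2 (log2 fold change -3.09, SE 0.64, adjusted p = 0.0221) and Tgfbr3 (log2 fold change -2.07, SE 0.49, adjusted p = 0.0296) and the ligand Tgfb2, the last named after its value was seen. Smad2 and Smad4 had log2 fold changes of -0.06 and -0.26.

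**Figure D4:**
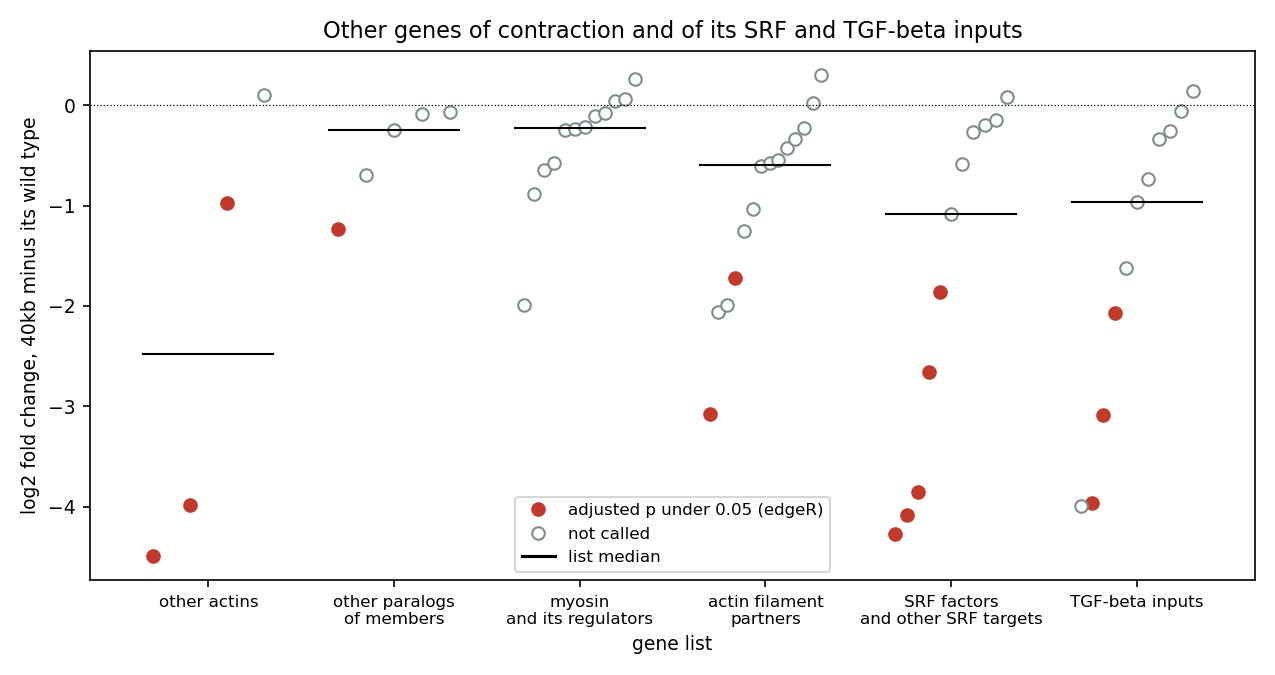
Log2 fold change in 40kb minus its wild type (vertical axis) of the 57 other genes, by list. Red points have an adjusted p under 0.05 in edgeR, open points do not, and black lines are list medians, from -2.48 for the other actins to -0.23 for myosin and its regulators.

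All 6 markers of smooth muscle other than the 9 genes had log2 fold changes below 0 in 40kb. Their median was -1.51, beside 0.06 over all genes. Myh11, Lmod1, Smtn, Synpo2 and Myocd were already among the other contraction genes above, so only Des was new here. Of the 6 only Myocd, the smooth muscle and heart coactivator of SRF, was called in 40kb (log2 fold change -4.08, SE 1.04). It had 0 to 0.0543 CPM in 40kb, against 0.298 and 0.456 CPM in wild type. Its 40kb level was close to the floor, with 0 counts in clone 1 replicate 1 and in clone 2 replicate 2. This call therefore rests on few counts. Lmod1, Myh11, Synpo2, Des and Smtn had log2 fold changes from -2.06 to -0.58 in 40kb and were not called. Their unadjusted p-values (edgeR) were 0.0066 for Myh11 and for Synpo2, 0.011 for Lmod1, 0.014 for Des and 0.085 for Smtn. Over all genes 23.5% had an unadjusted p under 0.05. The summed level of the 6 markers was 20.6 to 42 CPM in 40kb, against 52.9 and 59.4 CPM in wild type. In 70kb it was 37.2 to 71.1 CPM, against 44.4 and 58.5 CPM in wild type. Smtn alone had 13.2 to 33.2 CPM in 40kb, against 36.6 and 42.3 CPM in wild type.

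Among markers of other cell types, keratins and some fibroblast genes were lower in 40kb. Over all genes edgeR called 6.43% in 40kb in either direction and 5.67% lower. All 4 simple epithelium keratins were called lower in 40kb, their sum being 14.8 to 46.3 CPM in 40kb, against 428 and 569 CPM in wild type. It was 79.1 to 741 CPM in 70kb, against 104 and 433 CPM in wild type, and 195 to 741 CPM in replicate 2 and 79.1 to 303 CPM in replicate 1 of the 70kb set. Of 9 tested fibroblast markers (11 listed) 6 were called lower, with a sum of 6.9 to 7.72 CPM in 40kb, against 34.4 and 40.1 CPM in wild type. That sum was 5.77 to 74.8 CPM in 70kb, against 9.3 and 31.4 CPM in wild type. Of the 9 fibroblast markers 2 had a log2 fold change above 0 in 40kb. Thy1 had a log2 CPM of 1.16 to 2.00 in 40kb, against 1.00 and 1.60 in wild type. Pdgfra had a log2 CPM of -0.21 to 0.36 in 40kb, against -0.68 and 0.34 in wild type. Postn had 0 to 0.0271 CPM in 40kb, against 0.532 and 1.01 CPM in wild type, and Fap was at 0 in all libraries but 1 of the wild type of the 40kb set (0.0458 CPM). Cardiac muscle markers were called in 0 of 6 cases (3 at an unadjusted p under 0.05, 0 by DESeq2, beside 23.5% and 11.3% of all genes). Skeletal ones were called lower in 1 of 2 tested (Acta1, counted above among the other actins). Trophoblast ones were called lower in 2 of 7 and endothelial ones lower in 1 of 3. The trophoblast sum was 38.3 to 100.6 CPM in 40kb, against 73.3 and 100.96 CPM in wild type, and the endothelial sum 57.8 to 115 CPM in 40kb, against 50 and 73.6 CPM in wild type, so both overlapped. In the 70kb set the endothelial sum was 50.8 to 66.7 CPM in replicate 2 and 72.8 to 82.3 CPM in replicate 1. Of 8 ES cell markers 1, Fgf4, was called higher. All 8 had a log2 fold change above 0 in 40kb, with a median of 0.60 beside 0.06 over all genes. Their sum was 3990 to 4609 CPM in 40kb, against 2571 and 3172 CPM in wild type. The part of such cells in the levels of the contractile genes was not tested.

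**Figure D5:**
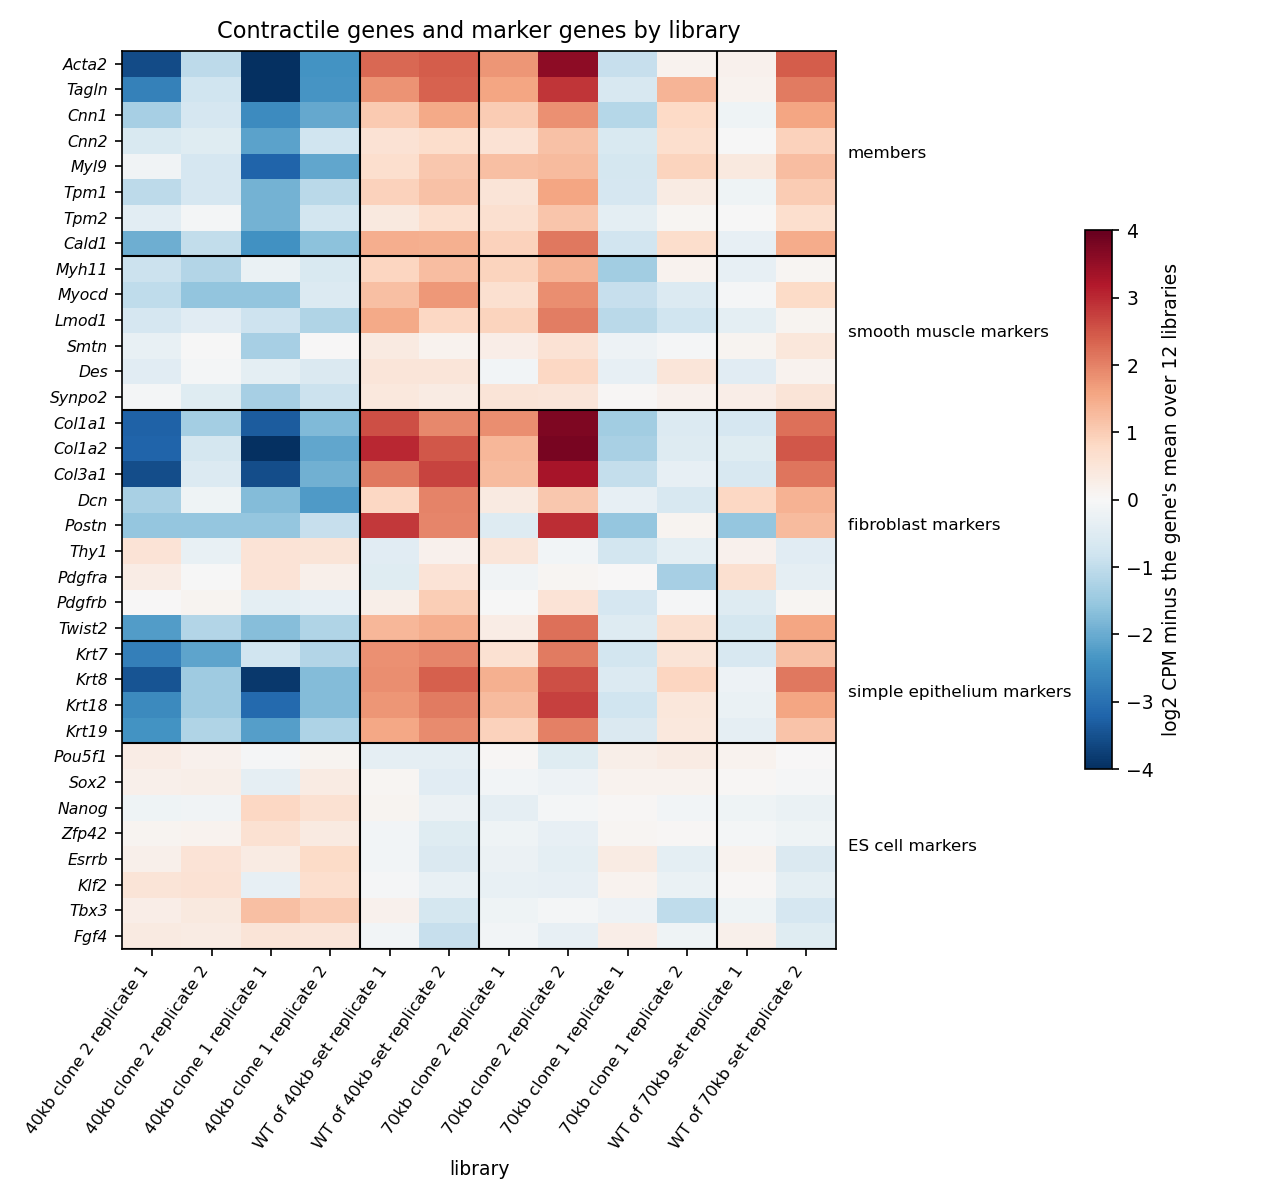
Log2 CPM of each gene minus its mean over the 12 libraries (colour, cut at 4 either way), with libraries in columns by group and genes in rows by list. In the rows of the keratins and of Col1a1, Col1a2 and Col3a1, as in the contractile rows, 40kb lies below both wild-type libraries of its set and the second replicate of 70kb clone 2 is highest. Krt7 differs within 40kb, being highest in clone 1 replicate 1, where the contractile rows are lowest.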

How the data were processed

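Of the 73 samples of the series, the 12 RNA libraries were used; contact maps and RNA antisense purification do not measure these genes. The authors deposited 1 table of whole-number counts per gene, and per the labels' protocols the libraries were made from polyadenylated RNA with a stranded kit. The submitters' processing notes name STAR, edgeR and build mm9. No source used here gives the counter, annotation release or strand setting. Genes were matched by Ensembl identifier to symbols (32620 of 37310 matched).

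Counts were filtered with edgeR 4.0.16 (filterByExpr on the 4 groups, R 4.3.3), scaled by TMM and fitted in 1 quasi-likelihood model of the 12 libraries with 4 group means (8 residual degrees of freedom; common biological coefficient of variation 23.8%). Clones were compared in a fit with 6 means. P-values were adjusted by Benjamini-Hochberg over all 16636 genes (16047 in the fit on the 6 libraries of the 70kb set alone), with a threshold of 0.05. Intervals are 95% intervals of the same fit as the value. Log2 CPM used a prior count of 2. The test was also run on simulated counts, drawn independently for each library without clone or replicate effects. That check therefore says nothing about such effects. Log2 fold changes are the first-named group minus the other.

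The members and the gene lists were chosen with earlier results of these data known, and the comparison of replicate 2 with replicate 1 was added after the data were seen. Named genes are the members, up to 2 called genes with the smallest adjusted p of each list, the smooth muscle markers and the 6 genes most like the members; other named genes were chosen after their values were seen. In the 70kb set libraries with the same replicate number deviated together (correlations of deviations from the group means of 0.211, 0.675 and 0.267 over 16636 genes, for the 3 pairs of groups), so the numbers are taken to pair the samples there. This pairing comes from the data and from the shared code B13 or B14 in the table's headers. It was weakest between the clones (0.211), and the fit with the block also blocked the 40kb set by replicate number. Alternatives were DESeq2 1.42.0, RLE size factors, no filter, a filter of a mean of 50 counts, leaving out each library, replicate blocks, counts summed per clone, each clone alone and other wild-type libraries. Outside Actg2, the lowest count of a member in a library was 16, so among the members counting error matters mainly for Actg2 and for Acta2 in 40kb.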

Additional observations from a re-analysis of the deposited data

Results flagged for a closer look

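Actg2 in the first replicate of 40kb clone 1 stood apart from its group, with 0.114 CPM (5 counts) where the other 3 libraries of 40kb had 0 CPM, so that the whole range of the group lay in that gap. Of 18 sets of 4 libraries examined (9 genes in 40kb and in 70kb) this was the 1 that exceeded Dixon's critical value. With the other 3 libraries at 0, any count above 0 would have exceeded it. The usual chance rate of about 1 in 20 therefore does not apply, and nothing is read from this flag.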

How the results depend on the processing

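In 40kb against wild type, 5 of the 8 genes tested passed the threshold, a count that the choice of genes fixed in part and from which nothing is read. It became 0 with a replicate block by B code, with counts summed per clone, in clone 2 alone and against the wild type of the other set, and lay between 0 and 5 without each library in turn. Over all genes the 1070 calls became 1874 with DESeq2, 357 with the block by B code, 3 with summed counts, 2 in clone 2 alone and 0 against the wild type of the other set, and lay between 0 and 1099 without each library in turn. The 14 calls among the 57 other contraction genes became 23 with DESeq2 and lay between 0 and 13 without each library in turn. Summed counts and single clones leave fewer libraries; for the others the cause was not tested. In the 40kb set the replicate numbers did not pair the samples (correlations of 0.17, 0.0498 and -0.0931), and the replicate block by number gave 6 of the 8 calls and 1447 over all genes.

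Between 40kb clones, 0 calls became 8 with no filter, 1 with DESeq2, 3 with the replicate block and 0 to 2 without each library in turn; Acta2 lay between -0.41 and 3.14. Between 70kb clones, 0 calls became 9 (Actg2 included) with no filter and 5 with the replicate block. For replicate 2 against replicate 1 of the 70kb set, 0 calls became 8 with no filter, 4 with DESeq2, 7 in the 6 libraries alone and 0 to 1 without each library in turn. The cause of these changes was not tested.

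The 8 log2 fold changes of 70kb, all near 0 and none called, changed sign often. In clone 1 alone they were -1.98 for Acta2, -0.76 for Tagln, -0.83 for Cnn1, -0.35 for Cnn2, -0.62 for Tpm1, -0.50 for Tpm2 and -0.70 for Cald1, and in clone 2 alone 0.36 for Myl9. Against the wild type of the other set they were -0.27 for Acta2, -0.36 for Tagln, -0.34 for Cnn1, -0.0562 for Cnn2, -0.40 for Tpm1, -0.0752 for Tpm2 and -0.36 for Cald1. Against all 4 wild-type libraries they were -0.0626 for Tagln, -0.18 for Cnn1, -0.00028 for Cnn2, -0.17 for Tpm1 and -0.0947 for Cald1. Myl9 was 0.00296 with the replicate block and 0.00284 with the block by B code, and Cnn1 -0.0013 with no filter. The replicate block changed no other call of 70kb against wild type. Without each library in turn the ranges were -0.95 to 1.92 for Acta2, -0.39 to 1.60 for Tagln, -0.63 to 1.13 for Cnn1, -0.34 to 0.61 for Cnn2, -0.40 to 0.47 for Myl9, -0.39 to 0.82 for Tpm1, -0.20 to 0.50 for Tpm2 and -0.41 to 1.39 for Cald1. Depth limits Actg2 most, with 0 to 15 counts a library.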
